A study of Caenorhabditis elegans with 4 samples.

Results

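SKN-1::GFP regions of 1000 bp or more, the broad end of a list of binding regions in first-stage larvae of Caenorhabditis elegans, numbered 437 of the 7714 regions in the authors' deposited list (5.67%). They were chosen by width alone, as end minus start plus 1 in that list, and are set here beside the 5353 regions of 200 to under 1000 bp. The 1924 shorter regions were not compared. The ChIP libraries held DNA pulled down with a goat antibody against GFP, and the input libraries held DNA of the same kind of chromatin without that step, with 2 replicates of each. All 4 libraries came from fed L1 hermaphrodites of strain OP178 grown at 20 °C. These worms carry unc119(ed3) and the transgene wgIs178, made by bombardment, which holds a tagged skn-1 (TY1, EGFP, FLAG) together with unc119. ChIP and input worms thus share the transgene, and no library from worms without it was analysed here. All libraries enter a single list, and without values by replicate the replicate error of the measurements below is unknown. Whether the replicates were separate cultures is not given in the sources used here.

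SKN-1 is a transcription factor related to the mammalian Nrf proteins. It switches on genes for detoxification and oxidative stress defence, mainly in the intestine, and in the embryo its maternal supply directs early blastomeres to gut and muscle fates. In a ChIP experiment a factor bound at a single short site usually yields a narrow region, and a region can be wide where enrichment runs on over several sites or where neighbouring peaks are joined. Worm autosomes have gene-dense central parts and repeat-rich arms, and the X chromosome is more even along its length.

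Broad regions were few but took up much of the listed length, and a class chosen by width must hold more than its share of it. They covered 788 kb, 23.7% of the length in all listed regions, and 754 kb (22.6%) without the widest one. The median of the class was 1354 bp, and the middle 50% ran between 1134 and 1823 bp. Most lay near the limit: 265 were under 1500 bp wide, 86 more were under 2000 bp, 48 more under 3000 bp and 26 more under 5000 bp, which leaves 12 of 5000 bp or more. Just inside the limit stood a region of 1000 bp on chromosome II at 7060137 to 7061136, with a ratio of 2.98, another on IV at 8015479 to 8016478, with 2.52, and one of 1002 bp on X at 15040306 to 15041307, with 2.72. Just outside it stood 3 regions of 996 bp, on I at 12547505 to 12548500 with a ratio of 3.02, on X at 8286087 to 8287082 with 2.61 and on II at 12677756 to 12678751 with 2.08. The limit thus falls in a continuous range of widths.

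The ratio is ChIP over scaled input tags, both recovered from the authors' q values, as given under the processing of the data. By these q values 14281 regions had been tested, and 54.0% of them were listed at the authors' q limit of 0.01, a share that every region here meets by construction. At a q under 1e-10 the background was 10.1% of the tested regions. Of the broad regions 305 (69.8%) had such a q, against 1132 (21.1%) of those of 200 to under 1000 bp. The median q was 6.52e-16 in broad regions and 8.46e-06 in regions of 200 to under 1000 bp. Broad regions made up 55 of the 100 first regions of the list and 28 of its last 3857. At a given ratio q falls with the number of tags, and so with width, and nothing is read from these counts about binding strength.

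Per kb of listed width, broad and narrower regions had close medians of ChIP tags. By that measure the broad class had slightly more input than all regions of 200 to under 1000 bp, and it had a slightly lower ratio. Beside the widest of these narrower regions, neither difference went beyond the intervals. The median was 251 ChIP tags per kb (quartiles 207 and 331), against 252 (quartiles 212 and 326) in regions of 200 to under 1000 bp. Input before scaling had a median of 78.3 tags per kb (95% interval of the median 75.2 to 81.3) in broad regions and 72.7 (71.9 to 73.4) in those of 200 to under 1000 bp. With 200 bp added to each width, the broad medians were 225 ChIP and 69.1 input tags per kb. The medians of the narrower class by that measure were not computed. They must lie below these broad medians, since adding 200 bp takes a larger part from each narrower region than from any broad one. The close medians of ChIP tags thus hold per kb of listed width only. The median ratio was 2.12 (2.06 to 2.19) in broad regions, against 2.29 (2.27 to 2.32) in the narrower class. The 436 regions of 750 to under 1000 bp, the closest in width, had a median ratio of 2.11 (2.06 to 2.19), so the direction turned, and 74.5 input tags per kb (71.8 to 78.0), with intervals that overlap those of the broad class. Intervals of medians and shares are exact binomial ones over regions, and since regions cluster they are too narrow. No test was made between the width classes, because width and q come from the same tags.

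Weak enrichment was more frequent among the broad regions than in the whole narrower class. A ratio under 1.5 was found at 33 broad regions (7.55%, 5.25 to 10.4) and at 81 of those of 200 to under 1000 bp (1.51%, 1.20 to 1.88). Of the regions of 750 to under 1000 bp 6.88% (4.69 to 9.68) had such a ratio, a share whose interval overlaps that of the broad class. A ratio above 4 was found at 17 broad regions (3.89%, 2.28 to 6.16), against 355 (6.63%, 5.98 to 7.33) of the narrower class and 5.73% (3.74 to 8.35) at 750 to under 1000 bp, and all 3 intervals overlap. The q limit admits low ratios only where tags are many, so this contrast is partly built into the list. At like numbers of scaled input tags the order of the median ratios turned round. Among regions with 100 to under 150 scaled input tags, the 114 broad ones had a median ratio of 2.14 and the 369 of 200 to under 1000 bp one of 1.92. At 75 to under 100 tags the medians were 2.49 for 34 broad regions and 2.11 for 626 narrower ones, and at 150 to under 200 tags 2.13 for 112 and 1.93 for 62. In these bins broad regions had thinner input, with a median of 106 scaled tags per kb against 167 at 100 to under 150 tags. A like number of input tags on a wider region means thinner input by construction. Across broad regions Spearman's rho between input per kb and ratio was -0.24. The bins therefore cannot tell width from input density, and nothing is read from the turned order.

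**Figure D1:**
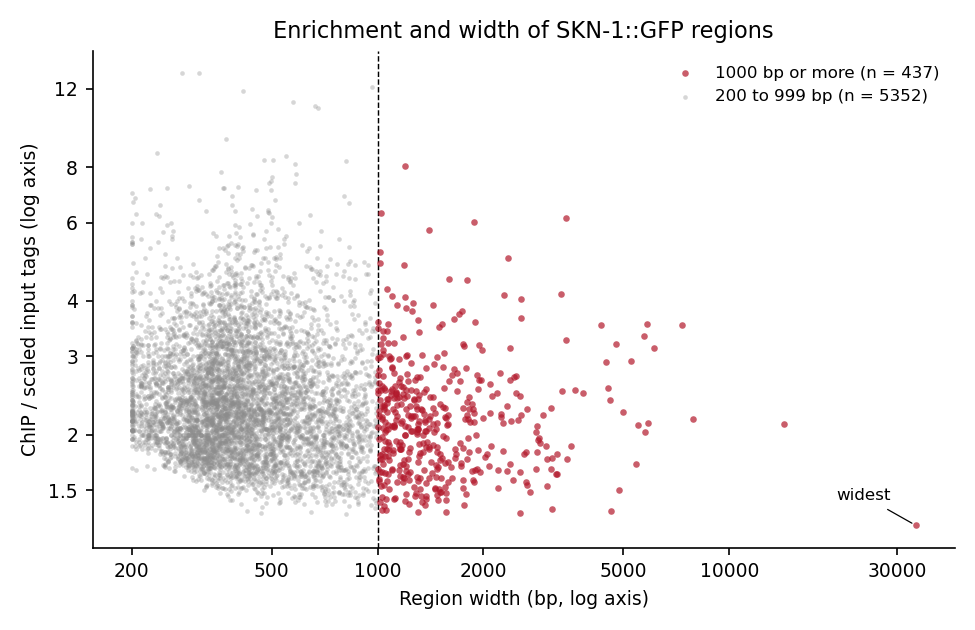
Each point is a region, with its width in bp on a log axis and its ratio of ChIP to scaled input tags on a log axis; red points are the 437 regions of 1000 bp or more and grey points the 5352 regions of 200 to under 1000 bp with a single tag pair. The broad class has a median ratio of 2.12, with medians of 2.07 to 2.15 over its width ranges, and the widest region lies lowest of the list at 1.25.

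Within the broad class the ratio hardly moved with width. The median was 2.10 under 1500 bp, 2.15 from there to under 2000 bp, 2.11 to under 3000 bp, 2.07 to under 5000 bp and 2.15 at 5000 bp or more. Across the 437 regions, which share libraries and scaling, Spearman's rho between width and ratio was -0.04. Density of ChIP tags did not follow width either (rho 0.00), whereas ChIP and input tags per kb rose together (rho 0.64). This joint rise is partly built in, since listed regions have more ChIP than scaled input tags and both densities are divided by the same width. These are descriptions across regions, which are not independent replicates.

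Of the 10 widest regions 5 had ratios near the median of the class and 4 had higher ones. Leaving aside the region on chromosome IV, the widest was on II at 10541846 to 10556199, with 14354 bp, 3874 ChIP tags and 1831 scaled input tags, at a ratio of 2.12 (95% exact interval 1.98 to 2.27). Chromosome V had the next, at 6223308 to 6231173, with 7866 bp and a ratio of 2.17 (1.99 to 2.38), and another of 5881 bp at 10714942 to 10720822 with 2.13 (1.93 to 2.35). A further V region of 5773 bp at 8934286 to 8940058 had 2.03 (1.82 to 2.27), and an X region of 5495 bp at 6740365 to 6745859 had 2.10 (1.90 to 2.33). The intervals of these 5 overlap, so counting error does not separate them. The X region at 12663018 to 12668857 had 3.55 (3.17 to 4.01), and the I regions that start at 12038839, 5375046 and 7079133 had 3.53 (3.16 to 3.96), 3.34 (3.00 to 3.74) and 3.14 (2.85 to 3.47). On chromosome III the widest region was shorter, 4471 bp at 9050738 to 9055208, with 2.92 (2.64 to 3.23). The 12 regions of 5000 bp or more were spread over I, V and X with 3 each, II with 2 and IV with 1.

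The 10 broad regions with the highest ratios were 1013 to 3429 bp wide. First stood IV at 4215238 to 4216436, 1199 bp wide, with 876 ChIP tags against 109 scaled input tags and a ratio of 8.04 (6.45 to 10.3). The next, on I at 11674285 to 11675308, had 6.30 (3.88 to 11.4) on only 145 ChIP and 23 scaled input tags, with the thinnest input of all broad regions, 16.6 tags per kb before scaling. It was followed by I at 7595072 to 7598500, at 6.15 (5.39 to 7.05), the region with the smallest q of the list. Chromosome V followed with 15879982 to 15881855, at 6.03 (4.96 to 7.41), and 14011659 to 14014011, at 4.99 (4.17 to 6.01). Further IV regions were 4084792 to 4086195, with a ratio of 5.79 (4.48 to 7.68), and 12033310 to 12034901, with 4.47 (3.57 to 5.71). On X, 14525328 to 14526344 had 5.14 (4.15 to 6.43) and 2996457 to 2997469 had 4.86 (4.03 to 5.92), and on III 9058541 to 9059727 had 4.82 (3.61 to 6.68). Most of these intervals overlap, that of the first region also with those at 6.30, 6.15, 6.03, 5.79 and 4.82, so the order was not resolved. The second smallest q belonged to III at 8443236 to 8447557, 4322 bp wide, with 2937 ChIP and 832 scaled input tags and a ratio of 3.53 (3.21 to 3.90). Of the 17 ratios above 4, chromosomes III, IV and V held 4 each, X held 3, I held 2 and II none. These counts rest on an input factor per chromosome, such as 1.70 on II and 1.32 on IV. The median ratio of broad regions was 1.92 on II and 2.47 on IV, but 3.28 on each before scaling.

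At the low end, broad regions passed the q limit on small excesses. After the widest region came V at 10711599 to 10714139, with 394 ChIP against 295 scaled input tags and a ratio of 1.34 (1.12 to 1.60). This weak region lies 802 bp from the 5881 bp region on V named above. Next were II at 6823227 to 6824788 at 1.34 (1.07 to 1.69), III at 4279958 to 4281263 at 1.34 (1.06 to 1.72) and X at 2589093 to 2593704 at 1.35 (1.23 to 1.48). All these intervals lie above 1, within counting error only and with the scaling factor taken as known. The q limit on the same tags all but fixes this in advance, so it is no separate support for enrichment.

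The widest region stood apart from every other broad region in its input. It spans 33885 bp on chromosome IV at 5642233 to 5676117, 2.36 times the width of the next. Its input before scaling was 647 tags per kb, 8.27 times the median of the other 436 broad regions and far over their highest value of 270. ChIP tags stood at 1070 per kb, 4.27 times that median, and only 1 broad region, on X at 1503473 to 1505268 with 1208 per kb, was denser. This single region held 26.1% of the input tags and 14.5% of the ChIP tags of all broad regions on 4.30% of their length. Summed over the class, the ratio was 2.00 with it and 2.23 without it, whereas the median ratio was 2.12 either way. It was also among the most isolated, with 34534 bp to the nearest listed region on its left and 55545 bp on its right. The call of this region rests on the input scaling read for its chromosome, 1.32, the lowest of the 6. With the highest factor, 1.70, its ratio was 0.97 and it no longer passed the p limit of the list. The skn-1 gene, of which the transgene carries a tagged copy, lies on chromosome IV in the RefSeq gene table on WBcel235. Whether the widest region holds that gene was not tested, because the table is on another build than the list.

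The left end of X held most of the other regions of dense input. Of the 10 broad regions with most input per kb, 9 started before 3 Mb on X, and so did 7 of the 10 with most ChIP tags per kb. The densest inputs after the widest region were on X at 2536103 to 2537148 with 270 tags per kb, 592826 to 594001 with 230, 2548762 to 2550100 with 221 and 2598515 to 2599784 with 187. Their ratios were low, between 1.41 and 1.90. Other broad regions of the same stretch combined dense input with high ChIP: 1503473 to 1505268 had a ratio of 4.46 (3.96 to 5.04), 1456226 to 1457483 one of 3.97 (3.38 to 4.70) and 806253 to 807257 one of 3.47 (2.94 to 4.16). The region on X at 2996457 to 2997469, named above, had 926 ChIP tags per kb. At the other extreme, the thinnest inputs after the I region of 16.6 tags per kb were 30.8 on V at 20157706 to 20160266, 33.8 on II at 8479901 to 8481438, 34.3 on I at 12674782 to 12675832 and 36.7 on III at 2871239 to 2872302. Their ratios were 4.03, 2.84, 2.52 and 3.42, in the same order.

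**Figure D2:**
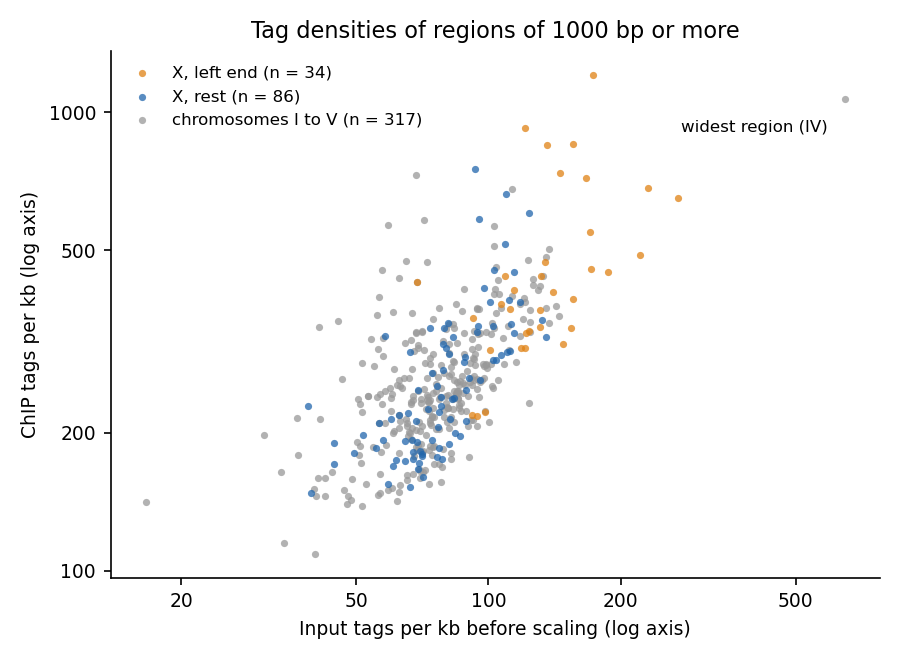
Each point is a region of 1000 bp or more, with input tags per kb before scaling and ChIP tags per kb, both on log axes; orange points are the 34 regions that start before 3 Mb on X, blue points the 86 others on X and grey points the 317 on chromosomes I to V. ChIP and input densities rise together, which the rule of the list partly builds in. The left end of X lies toward the upper right, and the widest region stands alone at 647 input tags per kb.

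Chromosome X was the richest in broad regions. It held 120 of the 437, or 27.5% (95% exact binomial interval 23.3 to 31.9), against 971 of the 5353 regions of 200 to under 1000 bp, or 18.1% (17.1 to 19.2). A width limit of 750 bp gave X 26.6% of 873 regions, and one of 1500 bp gave it 24.4% of 172. The larger share on X was thus not particular to regions of 1000 bp or more. Measured over the span between its outermost listed regions, X had 6.82 broad regions per Mb, against 3.26 on V, 3.67 on II, 4.07 on III, 4.21 on I and 4.24 on IV. Chromosome I, the densest in regions of 200 to under 1000 bp with 72.0 per Mb, did not lead in broad ones. It held 63 of them, 14.4% (11.3 to 18.1), against 20.1% (19.1 to 21.2) of the narrower class. Shares of broad and narrower regions were closer on II (12.8% and 13.8%), III (12.8% and 15.7%), IV (16.9% and 16.9%) and V (15.6% and 15.4%), where the intervals overlap.

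Part of the count on X came from its left end. The stretch before 3 Mb held 34 broad regions, 11.8 per Mb, whereas the regions of 200 to under 1000 bp were no denser there, with 54.1 per Mb there and 55.4 per Mb farther right. Broad regions of that stretch had a median of 132 input tags and 408 ChIP tags per kb, against 78.2 and 237 in those of the rest of X, and their ratio was 1.87, against 1.96. The narrower regions of the stretch had dense input too, a median of 128 tags per kb, against 69.8 in those of the rest of X. The part of this density in the number of broad regions was not tested. Without the stretch X still had 5.84 broad regions per Mb and held 21.3% of the broad class, against 15.7% of the narrower class.

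Broad regions lay in the central part of chromosomes I and II more often than narrower ones, and the other chromosomes were less clear. On these 2 chromosomes the intervals do not overlap, but on I they nearly meet. As regions cluster, such intervals are too narrow. A comparison by chromosome with regions of 750 to under 1000 bp was not made. The central 50% of the span held 76.8% (63.6 to 87.0) of the broad regions of II, against 53.3% (49.6 to 56.9) of its regions of 200 to under 1000 bp. On I the shares were 76.2% (63.8 to 86.0) and 59.3% (56.3 to 62.3), and on V 73.5% (61.4 to 83.5) and 60.3% (56.8 to 63.6), with intervals that overlap slightly. Chromosome III had 66.1% (52.2 to 78.2) and 56.3% (52.9 to 59.7), and IV 59.5% (47.4 to 70.7) and 58.0% (54.7 to 61.2), with overlapping intervals. On X the order was the other way, 43.3% (34.3 to 52.7) against 47.9% (44.7 to 51.1), again with overlap. Over all chromosomes 274 broad regions (62.7%) were central, against 2990 of the narrower class (55.9%), and without X the shares were 70.0% and 57.6%. The share of the regions of 750 to under 1000 bp was 59.9% (55.1 to 64.5), which overlaps that of the broad class (58.0 to 67.2) and brings the difference to 2.84 percentage points, against 6.84 for the whole narrower class. With each span cut into 10 equal parts, the ends of I had few broad regions beside many narrower ones: 0 and 86 in the first part, 2 and 85 in the last. The first part of IV held 1 and 99, the last part of II 2 and 96, and the second part of V 0 and 68. The first and the second part of X held 19 broad regions each, the most of that chromosome, and the seventh part of IV held 18 of the 74 on IV.

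**Figure D3:**
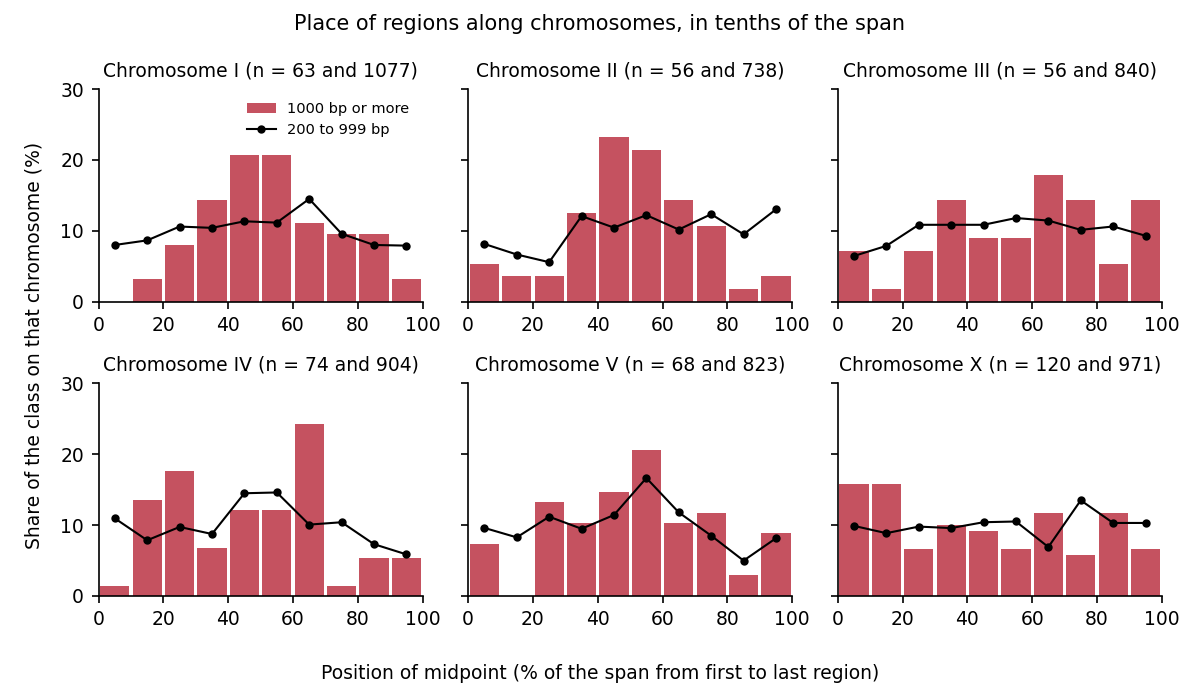
Share of each width class (percent) in 10 equal parts of the chromosome's span, by position along the span in percent; red bars are regions of 1000 bp or more and the black line those of 200 to under 1000 bp, with both numbers in each title. Broad regions are most frequent in the middle of I, II and V and at the left end of X, where the first and the second part hold 19 each.

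Measured edge to edge, broad regions lay closer to other regions than narrower ones did, by less where the narrower ones were close to them in width. The median gap to the nearest listed region, edge to edge, was 851 bp for broad regions and 2660 bp for those of 200 to under 1000 bp. A gap of at most 2000 bp was found at 306 broad regions (70.0%, 65.5 to 74.3), against 2236 of the narrower class (41.8%, 40.4 to 43.1). For the regions of 750 to under 1000 bp the median gap was 1565 bp and the share 55.7% (50.9 to 60.5), so the difference was 14.3 percentage points there, against 28.3 for the whole narrower class. At 500 bp the shares were 32.0% and 11.6%, and at 10000 bp 94.1% and 84.7%. The difference was in the same direction on every chromosome: 84.1% and 47.1% on I, 62.5% and 36.0% on II, 76.8% and 38.8% on III, 64.9% and 48.2% on IV, 66.2% and 37.4% on V and 68.3% and 40.5% on X. It also held inside and outside the central part, with 60.0 to 89.6% against 33.1 to 51.0% inside and 66.2 to 84.2% against 36.7 to 47.5% outside, over the 6 chromosomes. From midpoint to midpoint the share of broad regions with a neighbour within 2000 bp was 45.5%. No such share of the narrower class was computed, but it cannot exceed the 41.8% found from edge to edge. No region of the list has a neighbour closer than 200 bp. Whether neighbours are separate sites or pieces of 1 broader stretch was not tested.

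**Figure D4:**
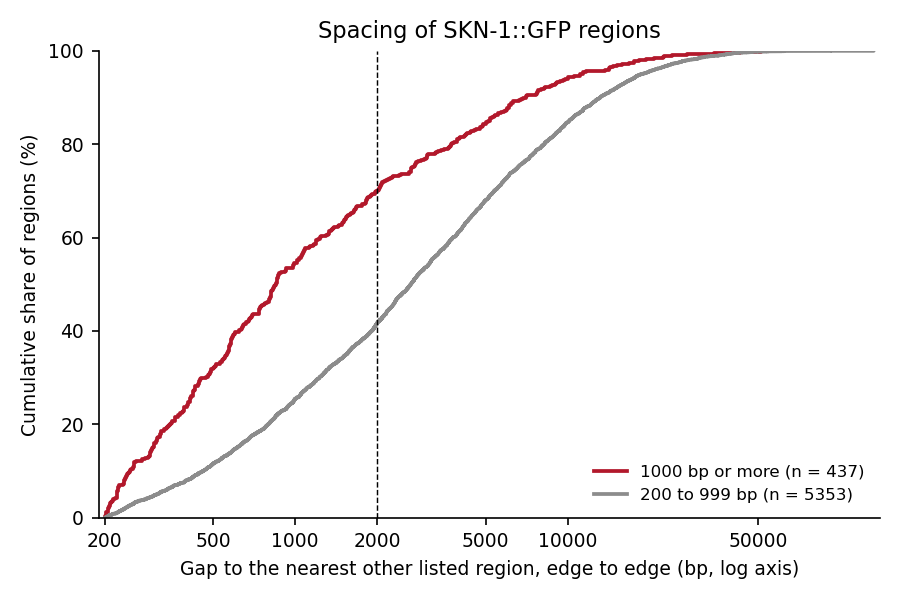
Cumulative share of regions by the edge-to-edge gap to the nearest other listed region, in bp on a log axis, for 437 regions of 1000 bp or more (red) and 5353 of 200 to under 1000 bp (grey). At the dashed line of 2000 bp the red curve stands at 70.0% and the grey one at 41.8%.

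Most neighbours of broad regions were narrower, as is most of the list, and their median ratio was like that of the broad regions. Of the 306 nearest neighbours within 2000 bp, 71 were themselves 1000 bp or more, a class that makes up 5.67% of the list. Broad regions were thus more frequent among these neighbours than in the whole list, though a pair of broad regions can count from both sides. Narrower regions are the closer comparison. Any broad region lay within 2000 bp of 87 of these 306, and of 289 of the 2236 narrower regions with a neighbour that close. Another 189 neighbours were 200 to under 1000 bp, a class with 69.4% of the list, and 46 were shorter. The median ratio of all 306 was 2.14. The 306 broad regions with such a neighbour had a median ratio of 2.10 and the 131 without one 2.22. Broad regions also lay near each other: another broad region was within 20000 bp of 183 of them (41.9%, 37.2 to 46.7), against 1154 regions of 200 to under 1000 bp (21.6%, 20.5 to 22.7). The closest pair was on II, at 8741232 to 8746085 and 8746289 to 8747591, 203 bp apart, with ratios of 1.504 and 2.06. The next was on I, at 4915842 to 4916971 and 4917177 to 4918378, 205 bp apart, with 2.48 and 1.66, and then came IV, at 7390040 to 7391228 and 7391444 to 7392643, 215 bp apart, with 1.75 and 1.99. The most isolated were III at 6551023 to 6552043, with 51169 bp to the nearest region and a ratio of 2.53, and II at 4376314 to 4377438, with 42959 bp and 2.47, followed by the widest region.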

How the data were processed

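ChIP and input DNA of 2 replicates each had been sequenced after crosslinking with 2% formaldehyde, per the labels' protocols. Per the file headers, positions are on WormBase WS180 and regions come from PeakSeq. The authors' deposited list gives a q-value (an adjusted p-value) per region and no value per library. Version and settings of PeakSeq, aligner, depth and handling of the replicates: not given in the sources used here.

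Each q-value equals p × 14281 / (list position + 1), and p is a binomial lower tail (probability 0.5) of whole tag numbers. Just 1 pair of tag numbers fits, within 1e-09 in ln p, at 7710 regions, with all 437 broad ones among them; at the other 4 several did. Taking the larger as ChIP and the smaller as scaled input follows how PeakSeq is known to work and is not written in the list. Input tags before scaling come from a factor per chromosome (1.32 to 1.70) on whose rounded-up multiples 97.9 to 99.7% of values fall. Ratio intervals are 95% Clopper-Pearson intervals from ChIP tags and input tags before scaling and cover counting error only. Medians have binomial order-statistic intervals. Gaps run from edge to edge, and the span of a chromosome from its first to its last region, as WS180 chromosome lengths were not used. Python 3.11.15, NumPy 2.4.6, SciPy 1.17.1, pandas 2.3.3 and Matplotlib 3.10.9 were used, and the steps were tested on simulated data.

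The regions and classes were chosen with earlier results of these data known. Named regions are the widest, also by chromosome, those with the smallest q, the highest and lowest ratio, the extremes of tag density, the closest and most isolated, the richest windows, and those at the width limit. Genes and sequence at the regions were not analysed here, as the gene table at hand is on WBcel235. Alternatives were other width limits and comparison classes, stricter lists, other distances, leaving out X or the widest region, and other treatments of the input.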

Additional observations from a re-analysis of the deposited data

How the results depend on the processing

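Of 51 alternatives 28 stayed within their interval or, for counts and covered length, within 1.5 times, 22 moved and 1 turned direction. The comparisons with 750 to under 1000 bp, the differences without X and among the best-ranked 3857 regions, the single scaling factor and all alternatives for the share on X were added after the data were seen. No paired analysis was possible because the list gives 1 value a region for all libraries together, which also means that leaving out replicates could not be tried. Limits of 750 and 1500 bp gave 873 and 172 regions, and 1500 bp gave 14.1% of the covered length. The median ratio was 3.19 with input before scaling, 2.26 in the best-ranked 1928 regions and 1.88 with the highest factor on every chromosome, where 425 broad regions passed. The 12 lost were the widest and 11 others with ratios of 1.38 to 1.66, 5 of them on I, 3 on IV, 2 on V and 1 on X, and 87.6% of the regions of 200 to under 1000 bp passed. Chromosomes II and III already have the highest factor, 1.70, so that hardly any loss was possible there. Nothing is read from the losses by chromosome. Per width plus 200 bp the median input of broad regions was 69.1 and their median ChIP 225 tags per kb. The medians of the narrower class, which must be lower by that measure, were not computed. Input per kb of broad regions was 119 when scaled and 74.99 without X. The central share was 70.0% without X, and the middle one of 3 equal parts of the span held 45.8%. The neighbour share was 54.5% at 1000 bp, 84.2% at 5000 bp, 45.5% from midpoint to midpoint and 47.2% within the best-ranked 3857 regions. Its difference from 200 to under 1000 bp, 28.3 percentage points, was 20.1 against 500 to under 1000 bp, 14.3 against 750 to under 1000 bp and 23.8 within the best-ranked 3857. From midpoint to midpoint the size of the difference is unknown, as no share of the narrower class was computed. That share cannot exceed the 41.8% found from edge to edge, so the broad share stayed higher. The difference in central share, 6.84 points, was 12.4 without X, 6.18 against 500 to under 1000 bp and 2.84 against 750 to under 1000 bp. The difference in median ratio, -0.17, was -0.0847 against 500 to under 1000 bp and turned to 0.0175 against 750 to under 1000 bp; the cause was not tested. The share on X was 21.3% without its first 3 Mb, 26.6% at a limit of 750 bp and 24.4% at 1500 bp. Depth of the libraries is unknown here, and counting error limits regions of few tags most, as at the broad region with 23 scaled input tags.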

Other observations

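When listed regions at most 2000 bp apart were joined, the 437 broad regions fell into 377 stretches, of which 131 were single broad regions. The other 470 members of these stretches were narrower, and 45 stretches held more than 1 broad region, 105 in all. After the widest region the longest stretch was on V at 10708437 to 10727082, 18646 bp with 7 regions, of which 4 were broad. It was followed by II at 10541846 to 10559819, 17974 bp with 3 broad regions that fill 96.3% of it. The stretch with most broad regions, 5, was on X at 11464053 to 11475319 and had no other member. Among windows of 100 kb the richest were X at 2500001 to 2600000 with 8 broad regions of 22 listed, X at 11400001 to 11500000 with 6 of 13 and II at 6800001 to 6900000 with 5 of 12. The first of these lies in the stretch of dense input at the left end of X.

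The longest stretches without a broad region still held many narrower ones. On V the 2753 kb from 2070174 to 4822985 had 120 listed regions under 1000 bp, and on I the 1939 kb from 12816593 to 14755905 had 147. Chromosome IV had 158 in the 1852 kb from 12034902 to 13887038.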
